A study of Homo sapiens with 6 samples.

Results

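Aminoacyl-tRNA synthetases are the enzymes that attach each amino acid to its transfer RNA. The set described here held 35 of the 58395 genes in the deposited table, 19 for the cytosolic enzymes and 16 for the mitochondrial ones. They were taken by their current gene symbols, and the list does not hold every human synthetase gene. The cells were M14, an established human melanoma line, grown without attachment as floating spheres, broken up mechanically, stained for the B-cell surface antigen CD20 and flow sorted. The groups were 3 CD20-positive libraries and 3 CD20-negative libraries of polyadenylated RNA, all from this same line with no other treatment or genotype given. No label states that the replicates were separate cultures; p-values therefore cover only the variation among these libraries, and it may be technical.

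Each synthetase recognises its amino acid and the matching transfer RNA, and the charged transfer RNA then carries the amino acid to the ribosome. Human cells keep one set for the cytosol and another, also encoded in the nucleus but imported, for translation of the few proteins encoded by mitochondrial DNA. The GARS1 and KARS1 genes each give rise to both a cytosolic and a mitochondrial form and are counted here as cytosolic. Several cytosolic synthetases are held together in a multisynthetase complex with scaffold proteins, and many cytosolic synthetase genes are known targets of ATF4, the transcription factor of the amino acid and unfolded protein responses.

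The values are in FPKM, fragments scaled to exon length and to a size set for each library. MS4A1, which encodes CD20, measured 1.24, 0.966 and 1.28 FPKM in CD20-positive libraries, against 0.225, 0.263 and 0.403 FPKM in CD20-negative libraries. The groups did not overlap, at low levels in both. The libraries held 15651172 to 17479732 recovered fragments when CD20-positive and 16666543 to 17915936 when CD20-negative. The mitochondrial genome took 11.9 to 20.6% of the fragments in CD20-positive libraries and 4.25 to 5.73% in CD20-negative libraries. Of 10 melanocytic marker genes 3 reached a mean of 1 FPKM, and the lineage factor SOX10 did not exceed 0.0717 FPKM in any library. The melanocytic list summed to 31.9 to 37.8 FPKM in CD20-positive libraries and 21.6 to 23.9 FPKM in CD20-negative libraries, nearly all from PMEL, GPR143, MITF and RAB38. The B-lineage list had 2 of 12 genes at a mean of 1 FPKM and summed to 6.52 to 9.25 FPKM in CD20-positive and 4.43 to 8.40 FPKM in CD20-negative libraries, and 0 of 4 pan-leukocyte genes reached that mean. The part of these differences in the results below was not tested.

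Cytosolic synthetase transcripts were more abundant per unit length than mitochondrial ones. Of the 19 cytosolic genes 18 reached the mean of 1 FPKM required for testing, and their means over the 6 libraries ran from 1.81 FPKM for CARS1, the cysteine enzyme, to 96.6 FPKM for AARS1, the alanine enzyme, with a median of 22.8 FPKM. Of the 16 mitochondrial genes 14 reached it, from 2.71 FPKM for PARS2, the proline enzyme, to 28.7 FPKM for IARS2, the isoleucine enzyme, with a median of 7.92 FPKM. A mean of 10 FPKM was reached by 17 cytosolic and 4 mitochondrial genes. These levels divide by the length of all annotated exons of a gene, so a gene with long alternative exons, such as CARS1 with 10037 exon bases, reads lower than its main transcript would.

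**Figure D1:**
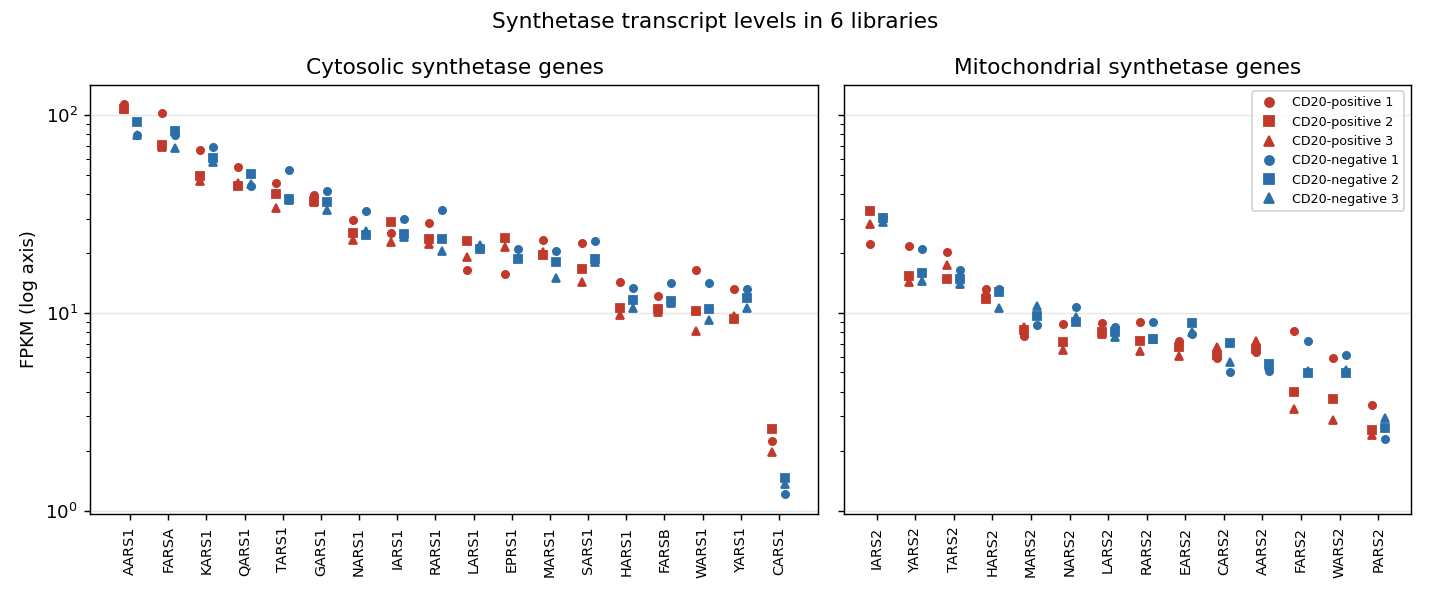
Level of each tested synthetase gene in FPKM on a log axis, cytosolic genes on the left and mitochondrial genes on the right, each ordered by its mean; red points left of each tick are CD20-positive libraries, blue points right of it CD20-negative libraries, and the marker shape is the replicate number. AARS1 stood highest at a mean of 96.6 FPKM, CARS1 stood lowest at 1.81 FPKM, and for most genes the colours intermix. VARS1, SARS2 and VARS2 are not drawn because their means lay under 1 FPKM.

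After AARS1, the order of cytosolic levels was FARSA, a subunit of the phenylalanine enzyme, at a mean of 78.9 FPKM, KARS1 (lysine) at 58.3 FPKM and QARS1 (glutamine) at 47.2 FPKM. FARSB, the partner subunit of FARSA, averaged 11.6 FPKM, although the enzyme is built from equal numbers of both subunits. HARS1, FARSB, WARS1 and YARS1 lay between 11.3 and 11.7 FPKM and did not differ from each other beyond their spread over libraries. EPRS1, the bifunctional enzyme for glutamate and proline and part of the complex, averaged 20.02 FPKM. Among mitochondrial genes IARS2 was followed by YARS2 (tyrosine) at 17.1 FPKM and TARS2 (threonine) at 16.3 FPKM, which were not separated beyond their spread.

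Both valine enzymes and the mitochondrial serine enzyme were listed at or near 0. VARS1 (ENSG00000204394, GRCh38 chromosome 6, 31777518 to 31795953) and SARS2 (ENSG00000104835, chromosome 19, 38915266 to 38930896) were listed at 0 in each of the 6 libraries. VARS2 (ENSG00000137411, chromosome 6, 30908242 to 30926459) was listed at 0.0548, 0.207 and 0.0749 FPKM in CD20-positive libraries, against 0.0378, 0.0266 and 0.365 FPKM in CD20-negative libraries. Charging of valine is needed by every cell, so these values cannot be read as absence of the transcripts. Between the start of VARS2 and the end of VARS1, within the major histocompatibility complex, 40 of 51 protein-coding genes (78.4%) were listed at 0 in the 6 libraries, against 27.7% of the 990 other protein-coding genes of chromosome 6. For SARS2, 57.0% of the exon bases also belonged to exons of other annotated genes, and the gene that covered most of them, AC011455.2, was itself listed at 0. The part of these annotations in the 0 values was not tested, and no change is given for the 3 genes.

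No cytosolic synthetase gene passed the test between CD20-positive and CD20-negative cells. The 13155 genes whose mean reached 1 FPKM were compared with limma on log2(FPKM + 1), p-values were adjusted over all of them (Benjamini-Hochberg), and an adjusted p under 0.05 counted as a call. Of the 18 tested cytosolic genes 0 passed, with 2 at an unadjusted p under 0.05 and a smallest adjusted p of 0.371, where 0.0076% of all tested genes passed (1 gene) and 9.2% had an unadjusted p under 0.05. A paired fit took replicate number as a block, although no label states a pairing. In that limma fit 0 of 18 passed again, with a smallest adjusted p of 0.0731, while 5.83% of all tested genes did (3.19% higher, 2.64% lower). The log2 change lay above 0 for 7 genes and below 0 for 11, with a median of -0.04, where 50.1% of all tested genes lay above 0 and their median was 0.00025. When libraries were instead scaled to their summed FPKM, which includes transcripts of the mitochondrial genome, the median of all genes moved to -0.41. In the fit without the block, that scaling called 1 cytosolic gene lower, KARS1 (-0.73). It called 3 mitochondrial genes lower, NARS2 (-0.81), EARS2 (-0.72) and WARS2 (-0.78). Of all tested genes 10.5% were called there, 10.3% lower and 0.213% higher. In the paired fit the same scaling called 8 cytosolic and 6 mitochondrial genes lower, where 29.8% of all were called, 29.1% lower and 0.684% higher. In a bulk sample, fewer cells with a transcript and less of it per cell cannot be told apart.

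The alanine and cysteine enzymes were the 2 cytosolic genes whose groups did not overlap, both with higher values in CD20-positive cells, and 0 lay wholly lower, where 8.87% of all tested genes lay wholly higher and 6.14% wholly lower. AARS1 (ENSG00000090861, GRCh38 chromosome 16, 70252295 to 70289543, minus strand) measured 113, 107 and 108 FPKM in CD20-positive libraries, against 79.7, 92.2 and 79.2 FPKM in CD20-negative libraries. The lowest CD20-positive library stood above the highest CD20-negative one, from 6740 or more fragments in each. The log2 change was 0.39 ± 0.15 (SE; 95% interval 0.03 to 0.75, limma, adjusted p = 0.518, and 0.213 in the paired fit). Scaled to the FPKM total of each library, the change of AARS1 turned to -0.13.

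CARS1 (ENSG00000110619, chromosome 11, 3000922 to 3057613, minus strand) measured 2.25, 2.59 and 1.99 FPKM in CD20-positive libraries, against 1.21, 1.46 and 1.37 FPKM in CD20-negative libraries. Each CD20-positive library was above each CD20-negative one, on 228 to 417 fragments. The CD20-positive mean of 2.28 ± 0.304 FPKM and the CD20-negative mean of 1.35 ± 0.129 FPKM (SD, n = 3 each) gave a ratio of 1.69 and a log2 change of 0.48 ± 0.14 (SE; 95% interval 0.15 to 0.81, limma, adjusted p = 0.371). In the paired fit the adjusted p was 0.0731, and it was 0.000728, with a change of 0.75, with voom on recovered fragments and the replicate block, a setting that called 12.3% of all tested genes (6.9% higher, 5.42% lower) and no other synthetase. Scaled to the FPKM total of each library, the change of CARS1 was 0.16 (limma, adjusted p = 0.575). Over the settings run, the adjusted p of CARS1 ranged up to 0.885.

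The methionine enzyme MARS1, part of the multisynthetase complex, measured 23.4, 19.6 and 20.3 FPKM in CD20-positive libraries, against 20.6, 18.1 and 15.03 FPKM in CD20-negative libraries. The groups overlapped, and the log2 change was 0.23 ± 0.16 (SE, limma, adjusted p = 0.69), which became -0.26 under scaling to the FPKM total. Of its exon bases 13.3% also belonged to other genes, and the library kit does not mark strand, so reads there cannot be assigned to MARS1 alone. KARS1, which serves lysine in the cytosol and the mitochondrion, measured 66.3, 49.3 and 46.4 FPKM in CD20-positive libraries, against 68.9, 60.7 and 58.0 FPKM in CD20-negative libraries. The replicate 1 library was the highest of each group, and the groups overlapped (log2 change -0.22 ± 0.19 SE, limma, adjusted p = 0.747). FARSB measured 12.1, 10.5 and 10.1 FPKM in CD20-positive libraries, against 14.2, 11.5 and 11.2 FPKM in CD20-negative libraries, again overlapping (log2 change -0.16 ± 0.15 SE, limma, adjusted p = 0.775).

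**Figure D2:**
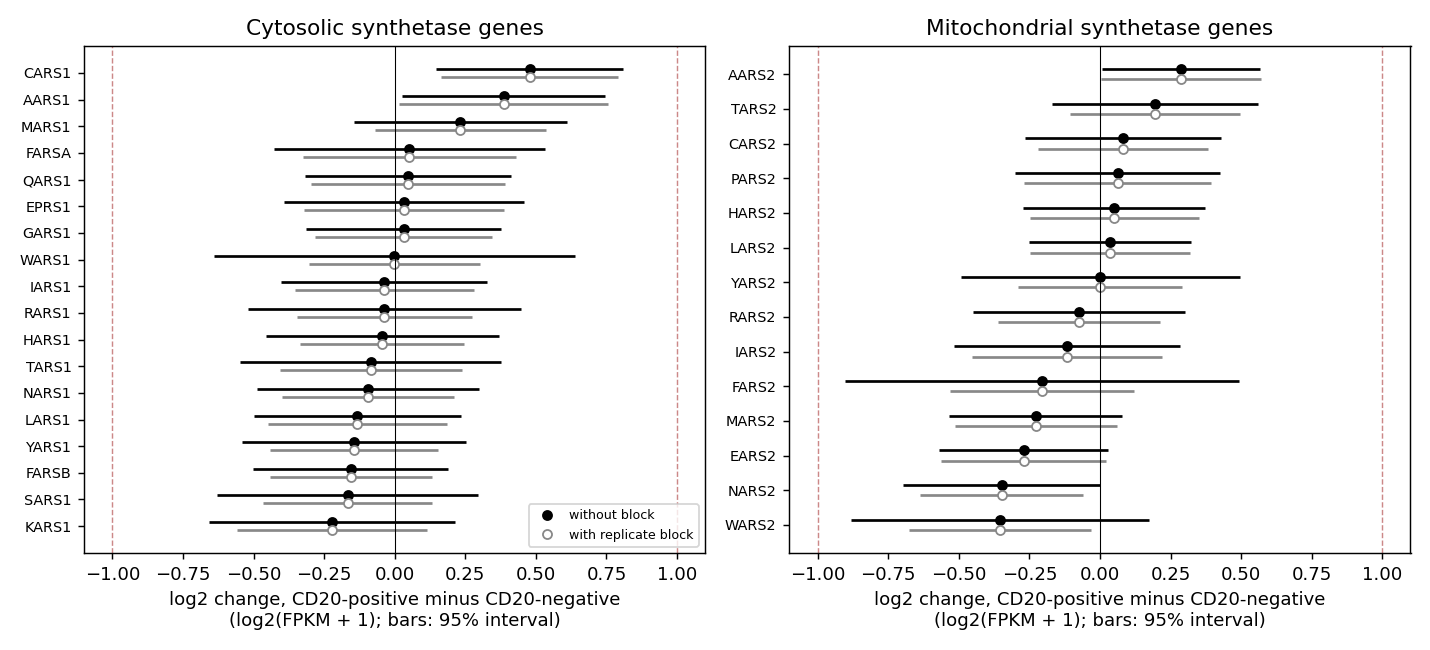
The log2 change of each tested synthetase gene, CD20-positive minus CD20-negative, on log2(FPKM + 1); filled points with black bars are the fit without the replicate block, open points with grey bars the paired fit, and bars are 95% intervals. The dashed lines mark a 2-fold change on this scale in either direction, and the black bars of the 18 cytosolic and 14 mitochondrial genes lie between them.

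The intervals are on log2(FPKM + 1), which compresses the changes of low genes, so they do not bound the fold in FPKM of a gene such as CARS1. On that scale, in the fit without the block, the 95% interval stayed within a 2-fold change for each of the 18 cytosolic and 14 mitochondrial genes tested (82.1% of all tested genes), and within a 1.5-fold change for 12 and 11 of them (43.4% of all tested genes). The widest reached from -0.90 to 0.49 on the log2 scale, for FARS2, the mitochondrial phenylalanine enzyme. No synthetase gene had a log2 change beyond 0.5 on that scale in either direction, where 10.2% of all tested genes did; with a pseudocount of 0.1 the change of CARS1 was 0.71.

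No subgroup of the synthetases held a called gene. The 7 members of the multisynthetase complex on the list (EPRS1, IARS1, KARS1, LARS1, MARS1, QARS1 and RARS1) had log2 changes from -0.22 to 0.23, a median of -0.04, 0 called in either fit and 0 with groups that did not overlap. The 11 tested genes outside the complex ran from -0.17 to 0.48 with a median of -0.04. Among the 12 genes reported as ATF4-responsive, 5 lay above 0 and 7 below, with a median of -0.02. The 6 tested genes of the other kind had a median of -0.04, 2 above 0 and 4 below. By structural class, the 16 tested class I and the 15 tested class II enzymes had medians of -0.04 each, with EPRS1, which joins both classes, left out.

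The promoters of several cytosolic genes carry an ATF4-type motif. ATF4 binds, with partners of the C/EBP family, to a composite site that contains TGATGNAA. That motif was searched on both strands in the 300 bases around each start site (250 before and 50 after, RefSeq on GRCh38.p14), which were at hand for 30 of the 35 genes. It was found in 6 of 16 cytosolic promoters, in 1 of 14 mitochondrial ones and in 2.53% of 15314 promoters of protein-coding genes. The matches are shown because 6 of them read the same TGATGCAA, or TTGCATCA on the other strand; each is 30 bases of the gene's own strand, 5′ to 3′, with the motif in capitals.
AARS1: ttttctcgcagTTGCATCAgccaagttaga
CARS1: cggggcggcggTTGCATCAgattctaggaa
IARS1: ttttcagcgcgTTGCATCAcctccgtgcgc
MARS1: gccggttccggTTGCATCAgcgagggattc
NARS1: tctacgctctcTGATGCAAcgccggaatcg
TARS1: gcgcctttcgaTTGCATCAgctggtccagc
YARS2: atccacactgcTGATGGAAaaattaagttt
The AARS1 match (chr16:70289675-70289704, minus strand) ran from position -187 to -180, with the start base as position 1, whereas those of CARS1 (chr11:3057407-3057436, minus strand) and MARS1 (chr12:57488053-57488082, plus strand) spanned it. IARS1 (chr9:92293692-92293721) and NARS1 (chr18:57621804-57621833) lie on the minus strand, TARS1 (chr5:33440956-33440985) on the plus strand and YARS2 (chr12:32756076-32756105) on the minus strand. A match is a description of letters and not evidence of binding. The 6 cytosolic genes with the motif had log2 changes from -0.09 to 0.48 with a median of 0.10, and the 10 without it from -0.22 to 0.05 with a median of -0.02, and 0 genes of either kind passed the test.

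No mitochondrial synthetase gene passed the test. RNA of the mitochondrial genome itself took the larger share of fragments given above in CD20-positive libraries, and its part in these values was not tested. Of the 14 tested genes 0 passed without the block, with 1 at an unadjusted p under 0.05 and a smallest adjusted p of 0.528, and 0 passed in the paired fit, with 3 at an unadjusted p under 0.05 (21.3% of all tested genes) and a smallest adjusted p of 0.15. The median log2 change was -0.04, with 7 genes above 0 and 7 below. In CD20-positive libraries 1 gene lay wholly higher and 3 wholly lower, where 8.87% and 6.14% of all tested genes did.

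AARS2, the mitochondrial alanine enzyme (ENSG00000124608, GRCh38 chromosome 6, 44299654 to 44313326, minus strand), measured 6.38, 6.57 and 7.23 FPKM in CD20-positive libraries, against 5.07, 5.52 and 5.39 FPKM in CD20-negative libraries. It was the mitochondrial gene that lay wholly higher, with a log2 change of 0.29 ± 0.12 (SE; 95% interval 0.01 to 0.57, limma, adjusted p = 0.528, and 0.227 in the paired fit). Under scaling to the FPKM total the change became -0.15. NARS2, the asparagine enzyme (ENSG00000137513, chromosome 11, 78435961 to 78574874, minus strand), measured 8.78, 7.12 and 6.50 FPKM in CD20-positive libraries, against 10.7, 9.04 and 9.49 FPKM in CD20-negative libraries. Its highest CD20-positive library stayed under its lowest CD20-negative one (log2 change -0.35 ± 0.15 SE, limma, adjusted p = 0.545, and 0.15 in the paired fit). Scaled to the FPKM total, NARS2 was called lower (-0.81, limma, adjusted p = 0.0396), where 10.3% of all tested genes were.

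EARS2, which charges glutamate in the mitochondrion, measured 7.17, 6.75 and 6.03 FPKM in CD20-positive libraries, against 7.78, 8.88 and 8.01 FPKM in CD20-negative libraries. The groups did not overlap (log2 change -0.27 ± 0.13 SE, limma, adjusted p = 0.575). MARS2, the methionine enzyme, measured 7.67, 8.20 and 8.51 FPKM in CD20-positive libraries, against 8.72, 9.60 and 10.8 FPKM in CD20-negative libraries. These groups did not overlap either (log2 change -0.23 ± 0.13 SE, limma, adjusted p = 0.64). WARS2, the tryptophan enzyme, measured 5.92, 3.66 and 2.88 FPKM in CD20-positive libraries, against 6.11, 4.96 and 5.16 FPKM in CD20-negative libraries. Here replicate 1 of the CD20-positive cells reached into the CD20-negative range, and the change of -0.35 ± 0.22 (SE) had an adjusted p of 0.664 in limma. The change of WARS2 was -0.59 without CD20-positive replicate 1 and -0.17 without CD20-positive replicate 3. The paired limma fit without replicate 1 called WARS2 lower (-0.51, adjusted p = 0.024), a setting that called 2162 of all 13311 genes tested in it. IARS2, the most abundant of the set, measured 22.2, 32.6 and 28.2 FPKM in CD20-positive libraries, against 30.5, 30.01 and 28.7 FPKM in CD20-negative libraries, with the low value of CD20-positive replicate 1 apart from the other 5 (log2 change -0.12 ± 0.17 SE, limma, adjusted p = 0.87, and 0.03 without that library). PARS2, the least abundant tested, measured 3.41, 2.55 and 2.43 FPKM in CD20-positive libraries, against 2.29, 2.63 and 2.95 FPKM in CD20-negative libraries, with overlap (log2 change 0.06 ± 0.15 SE, limma, adjusted p = 0.932).

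On the deposited scale, the summed level of each set overlapped between the fractions. The cytosolic genes summed to 641, 552 and 522 FPKM in CD20-positive libraries, against 603, 556 and 508 FPKM in CD20-negative libraries, a mean of 572 ± 61.9 against 556 ± 47.5 FPKM (SD, n = 3 each). The mitochondrial genes summed to 149, 135 and 131 FPKM in CD20-positive libraries, against 151, 141 and 136 FPKM in CD20-negative libraries, a mean of 138 ± 9.45 against 143 ± 7.94 FPKM (SD, n = 3 each). The ratio of the cytosolic to the mitochondrial sum, which no scaling between libraries can move, was 4.31, 4.09 and 4.0003 in CD20-positive libraries, against 3.9866, 3.94 and 3.75 in CD20-negative libraries. Those groups did not overlap, by a margin of 4.0003 against 3.9866. Without AARS1 the ratio averaged 3.34 ± 0.192 in CD20-positive libraries, against 3.30 ± 0.149 (SD, n = 3 each) in CD20-negative ones, with overlap. Over the members at 10 FPKM or more it averaged 7.59 ± 0.583 in CD20-positive libraries, against 7.49 ± 0.0623 (SD, n = 3 each) in CD20-negative ones, also with overlap. AARS1 alone made up 17.7, 19.4 and 20.6% of the cytosolic sum in CD20-positive libraries, against 13.2, 16.6 and 15.6% in CD20-negative libraries.

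For 13 amino acids the list held a single gene on each side, and 11 of these pairs had both genes tested. By FPKM the cytosolic gene was the higher in every library for 7 pairs, and the mitochondrial gene for 2, CARS1 with CARS2 and YARS1 with YARS2. For tyrosine that order rests on exon length, 8212 bases for YARS1 and 2152 for YARS2. YARS1 had 1229 to 2030 fragments per library, against 488 to 848 for YARS2. The ratio was widest for alanine, at 17.8, 16.3 and 14.9 in CD20-positive libraries, against 15.7, 16.7 and 14.7 in CD20-negative libraries, with overlapping groups, while AARS1 and AARS2 each lay wholly higher in CD20-positive libraries. The median log2 change of the ratio over the 11 pairs was 0.08, within a range of -0.28 for threonine to 0.46 for methionine on log2(FPKM + 1); with a pseudocount of 0.1 cysteine was the highest, at 0.62, above methionine at 0.49.

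For tryptophan, asparagine, cysteine and methionine the ratio lay wholly higher in CD20-positive libraries. For the other tested pairs the groups overlapped, and no ratio lay wholly lower. The share of such ratios over other gene pairs was not computed, so the separation is not read as a result about these pairs. For tryptophan, WARS1 over WARS2 was 2.79, 2.77 and 2.82 in CD20-positive libraries, against 2.32, 2.12 and 1.79 in CD20-negative libraries, although each gene alone varied widely over the replicates. For asparagine, NARS1 over NARS2 was 3.36, 3.54 and 3.58 in CD20-positive libraries, against 3.07, 2.75 and 2.74 in CD20-negative libraries. For cysteine, CARS1 over CARS2 was 0.380, 0.423 and 0.297 in CD20-positive libraries, against 0.240, 0.208 and 0.243 in CD20-negative libraries. The methionine ratio, MARS1 over MARS2, stood at 3.05, 2.38 and 2.39 in CD20-positive libraries, against 2.37, 1.88 and 1.39 in CD20-negative libraries, apart by 2.38 against 2.37. These ratios are given as a description, and a test of 3 against 3 libraries could not give an exact permutation p under 0.1.

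**Figure D3:**
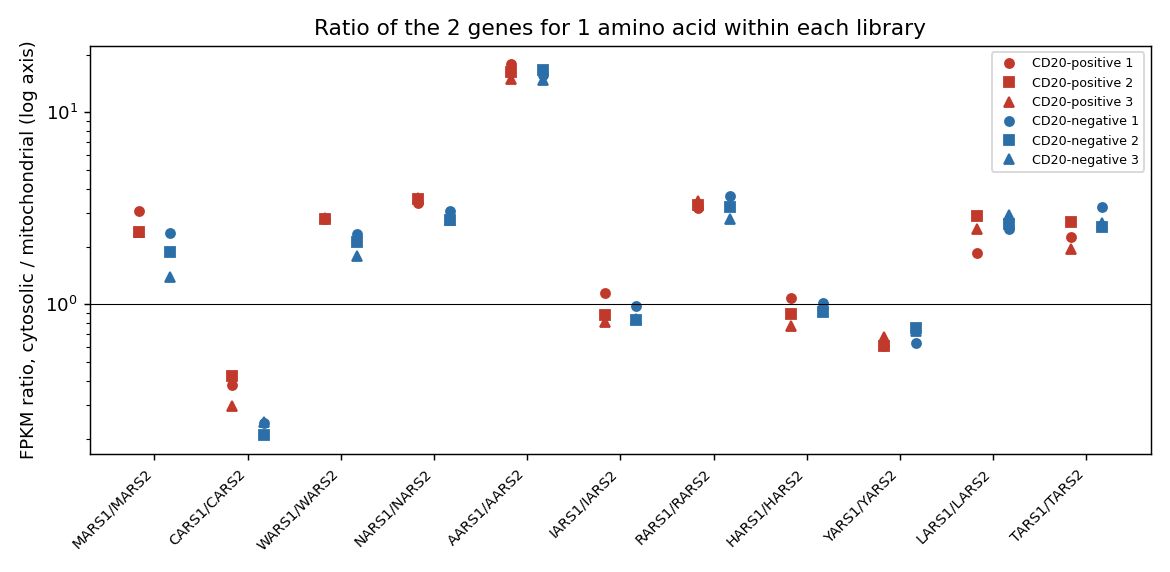
Ratio of the FPKM of the cytosolic gene to that of the mitochondrial gene for the same amino acid, on a log axis, within each library, for the 11 pairs with both genes tested, ordered by the change of the ratio; red points left of each tick are CD20-positive and blue points right of it CD20-negative libraries. Red lies wholly above blue for MARS1/MARS2, CARS1/CARS2, WARS1/WARS2 and NARS1/NARS2, and alanine stands apart at ratios of 14.7 to 17.8.

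The histidine pair shares a start region. HARS1 and HARS2 lie head to head on chromosome 5, and 84 bases separate their RefSeq start sites (HARS1 at 140691370 on the minus strand, HARS2 at 140691455 on the plus strand). The bases between the starts are shown because both genes are read outward from them; they are written 5′ to 3′ on the plus strand of GRCh38.p14, chr5:140691371-140691454.
HARS1 and HARS2: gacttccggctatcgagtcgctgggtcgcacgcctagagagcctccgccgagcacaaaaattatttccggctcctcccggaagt
HARS1 measured 14.3, 10.6 and 9.75 FPKM in CD20-positive libraries, against 13.4, 11.6 and 10.5 FPKM in CD20-negative libraries. HARS2 measured 13.2, 11.8 and 12.7 FPKM in CD20-positive libraries, against 13.1, 12.7 and 10.5 FPKM in CD20-negative libraries. Both genes thus stood at similar FPKM, with overlapping groups and log2 changes of -0.04 ± 0.18 and 0.05 ± 0.14 (SE, limma, adjusted p = 0.962 and 0.939). That likeness rests on exon length. HARS1 had 1211 to 1973 fragments per library over 7853 exon bases, and HARS2 had 708 to 923 over 3736. Longer annotated transcripts overlap there, with 15.8% of the exon bases of HARS2 and 8.4% of those of HARS1 also in other genes. The sources used do not say how reads in shared bases were counted, and the part of this overlap in the 2 values was not tested.

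For many synthetase genes the replicate 1 libraries were the highest of both groups. Both replicate 1 libraries stood above the other 4 for 11 of the 18 cytosolic and 6 of the 14 mitochondrial genes, and below them for 0, where 23.5% of all tested genes stood above and 20.8% below. The tryptophan enzyme WARS1, which interferon gamma is known to induce, measured 16.5, 10.2 and 8.12 FPKM in CD20-positive libraries, against 14.2, 10.5 and 9.25 FPKM in CD20-negative libraries. FARS2 measured 8.11, 3.98 and 3.28 FPKM in CD20-positive libraries, against 7.20, 4.99 and 5.07 FPKM in CD20-negative libraries. In both genes the first value of each group was the highest, with groups that overlapped widely. The highest of the 6 values lay in CD20-positive replicate 1 for 7 cytosolic and 6 mitochondrial genes, and in CD20-negative replicate 1 for 8 and 3. Within the 3 replicate numbers, the median log2 change of the cytosolic genes was -0.04, 0.01 and -0.09, and that of the mitochondrial genes 0.03, -0.07 and -0.11. The direction was the same in the 3 pairs for 6 cytosolic genes (3 higher, 3 lower) and 7 mitochondrial genes (2 higher, 5 lower), where this held for 42.1% of all tested genes.

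**Figure D4:**
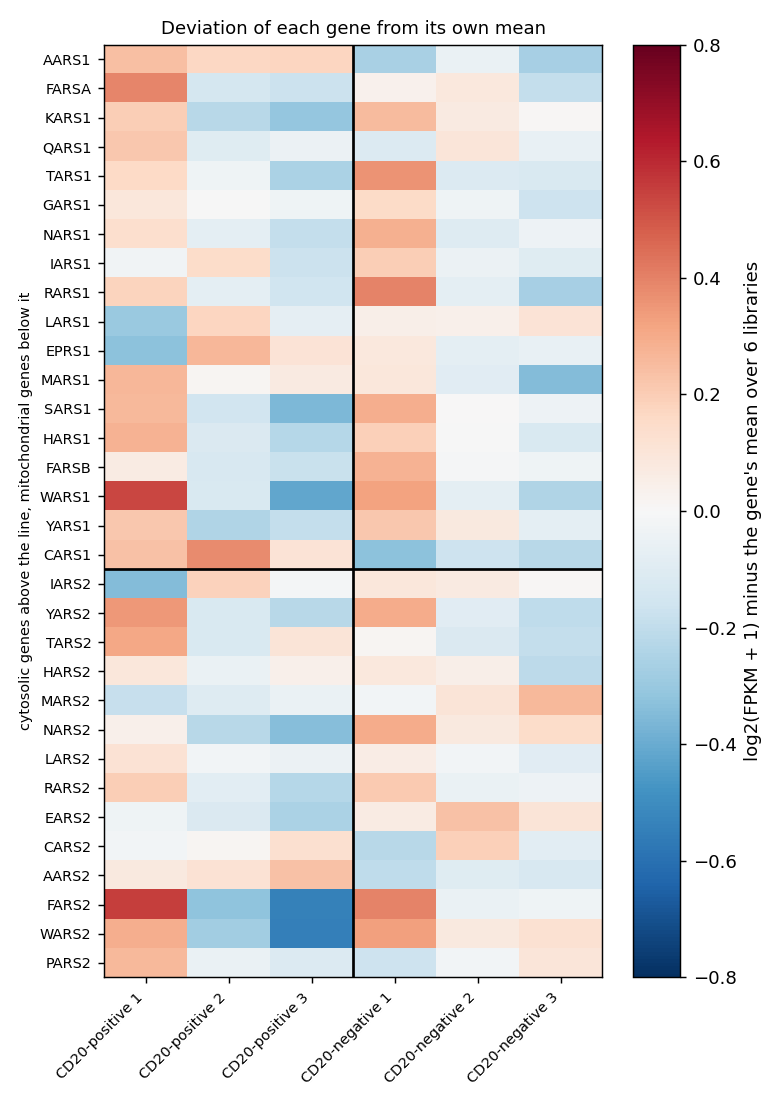
Each tested synthetase gene (rows, cytosolic above the line and mitochondrial below it) in each library (columns, CD20-positive on the left), coloured by log2(FPKM + 1) minus the mean of that gene over the 6 libraries; red is above the mean and blue below it. The columns of replicate 1 are red in both groups for most genes, while AARS1, CARS1 and AARS2 are red across the CD20-positive columns and blue across the CD20-negative ones. EARS2 shows the reverse, with blue across the CD20-positive columns and red across the CD20-negative ones.

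Genes that work with the synthetases were compared in the same fits, of which the paired one called 5.83% of all tested genes, 2.64% lower. Of the 3 scaffold genes of the multisynthetase complex and XPOT, the nuclear exporter of transfer RNA, 0 of 4 passed without the block and 1, lower, in the paired fit, and the list's median log2 change was -0.36. EEF1E1, the scaffold also called AIMP3, fell in the paired fit. It measured 4.71, 4.47 and 4.26 FPKM in CD20-positive libraries, against 9.82, 5.40 and 6.81 FPKM in CD20-negative libraries. Its groups did not overlap, where 6.14% of all tested genes lay wholly lower. The log2 change was -0.57 ± 0.20 (SE; limma, adjusted p = 0.485), and -0.57 ± 0.15 with adjusted p = 0.0472 in the paired fit. That call was lost in the paired fit without replicate 1, 2 or 3 (adjusted p = 0.0948, 0.103 and 0.179), under the total without mitochondrially encoded genes (0.113), with no filter (0.416) and with each gene's own spread (0.466). Its exons share 18.7% of their bases with the readthrough gene EEF1E1-BLOC1S5, so its level is uncertain. The other scaffolds AIMP1 and AIMP2 had log2 changes of -0.24 and -0.43 and XPOT one of -0.30, without a call in either fit.

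For the mitochondrial partners, 0 of 5 genes passed in either fit (median -0.17). MTFMT, which formylates the initiator methionine of mitochondrial translation, measured 6.90, 4.27 and 3.85 FPKM in CD20-positive libraries, against 8.48, 6.98 and 6.80 FPKM in CD20-negative libraries. Its change of -0.52 ± 0.21 (SE) had an adjusted p of 0.523 in limma, and in the paired fit 0.050002, which just missed the threshold. MTFMT was called with voom and the replicate block (adjusted p = 0.0096), where 12.3% of all tested genes were called (6.9% higher, 5.42% lower). It was also called in the paired limma fit without replicate 1 (adjusted p = 0.00204), where 2162 of 13311 tested genes were. QRSL1, a subunit of the amidotransferase that makes glutaminyl-tRNA in mitochondria, had a log2 change of -0.17 ± 0.14 (SE, limma, adjusted p = 0.728). Of 16 genes of transfer RNA maturation and modification in mitochondria 15 were tested and 0 passed in either fit, with a median of -0.06. TRNT1, which adds the CCA end, measured 5.23, 5.96 and 5.66 FPKM in CD20-positive libraries, against 7.56, 6.34 and 8.06 FPKM in CD20-negative libraries, without overlap (log2 change -0.33 ± 0.13 SE, limma, adjusted p = 0.526). TRMT61B, a mitochondrial transfer RNA methyltransferase, had a log2 change of -0.30 ± 0.15 (SE, limma, adjusted p = 0.62). The exons of TRMT61B share 22.9% of their bases with SPDYA, and those of TRNT1 10.8% with CRBN, so both levels are uncertain. Of these 15 genes 1 lay wholly higher and 1 wholly lower, where 8.87% and 6.14% of all tested genes did.

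No gene on the list of the ATF4 and amino acid response passed the test. Of 29 genes 24 were tested, 0 passed in either fit, 12 lay above 0 and 12 below, and the median was -0.00013. ATF4 itself measured 87.8, 75.9 and 79.5 FPKM in CD20-positive libraries, against 89.1, 89.7 and 87.4 FPKM in CD20-negative libraries (log2 change -0.13 ± 0.15 SE, limma, adjusted p = 0.816). The smallest p-values on the list belonged to the chains of an amino acid transporter. SLC3A2, the heavy chain, measured 65.1, 48.8 and 55.2 FPKM in CD20-positive libraries, against 45.9, 37.8 and 32.2 FPKM in CD20-negative libraries. SLC7A5, the light chain that carries large neutral amino acids, measured 118, 99.1 and 111 FPKM in CD20-positive libraries, against 92.3, 74.4 and 70.1 FPKM in CD20-negative libraries. Neither gene's groups overlapped, with log2 changes of 0.54 ± 0.19 and 0.47 ± 0.18 (SE, limma, adjusted p = 0.485 and 0.503, and 0.0611 and 0.126 in the paired fit). Of the 24 tested list genes 4 lay wholly higher, with SLC38A2 and GPT2 as the others, and 0 wholly lower. Of all tested genes 8.87% lay wholly higher and 6.14% wholly lower. Under scaling to the FPKM total the change of SLC3A2 became 0.03 and that of SLC7A5 -0.04. With voom on recovered fragments and the replicate block both were called (adjusted p = 0.00756 and 0.036). That setting called 12.3% of all tested genes (6.9% higher, 5.42% lower).

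**Figure D5:**
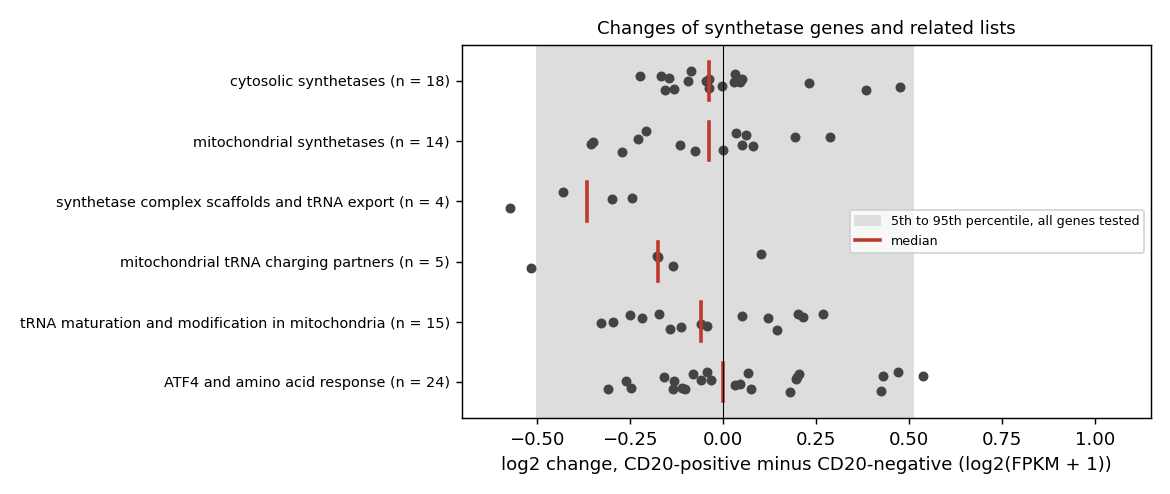
The log2 change of each tested gene (points, with random vertical spread) in the synthetase sets and the related lists, CD20-positive minus CD20-negative on log2(FPKM + 1); red bars are list medians and the grey band spans the 5th to 95th percentile of all 13155 genes tested, -0.50 to 0.51. The synthetase points lie inside the band around medians of -0.04, and EEF1E1, MTFMT and SLC3A2 are the points outside it.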

How the data were processed

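The table holds 1 value per Ensembl gene for 6 RNA-seq libraries. The deposited values are FPKM made by the authors; the header names no unit, which was read from the values. Multiplied by the exon length in GENCODE release 29, 98.1 to 98.6% of low values (up to 20 fragments, tolerance 0.02) were whole multiples of 1 step per library, which gave the recovered fragments. The library size implied by that step was 0.864, 1.02 and 0.971 of the recovered fragments in CD20-positive libraries. In CD20-negative libraries it was 1.07, 1.07 and 1.10 of them. The deposited values are therefore not scaled to the recovered fragment totals. The tools named in the submitters' processing notes are HISAT2, DESeq2 and featureCounts 1.5.0, on GRCh38 (hg38); settings and strand use are not given in the sources used. Of the identifiers 58275 matched release 29 and 120 did not.

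Genes whose mean reached 1 FPKM were tested on log2(FPKM + 1), which understates the change of low genes, with limma 3.58.1 in R 4.3.3 (trend and robust prior, no block, 4 residual degrees of freedom). A filter of 10 FPKM was kept as an alternative, since it removes most mitochondrial synthetase genes. No label states a pairing. Deviations from group means of same-numbered libraries correlated at 0.675, 0.238 and 0.509 over 13155 genes, each over 0.1. On that rule the replicate numbers were taken as a block in a further fit, called paired here (2 residual degrees of freedom). Replicate 2 correlated better with the other group's replicate 3 (0.426 and 0.396). Deviations within 3 libraries sum to 0, so a replicate 1 shift in both groups alone raises correlations among replicates 2 and 3. The values therefore do not show that replicates 2 and 3 are paired by number. The scripts were tested on simulated data.

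Named genes were those past the threshold in either fit, the 5 of each set with the smallest p, and the highest and lowest mean of each set; of each related list, called genes or the 2 with the smallest p. XPOT, AIMP1, AIMP2, ATF4, HARS1, HARS2, WARS1 and FARS2 and genes given with a level only were added after their values were seen. PARS2 was not named by that rule, under which SARS2 had the lowest mitochondrial mean, and is given as the least abundant mitochondrial gene tested. The members and lists were chosen with earlier results of these data known.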

Additional observations from a re-analysis of the deposited data

How the results depend on the processing

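Without the block 0 cytosolic and 0 mitochondrial synthetase genes and 0 genes of the related lists were called, and 1 of all tested genes. The counts moved with scaling to the FPKM total to 1, 3 and 5 (1383 of all genes), and with the replicate block as well to 8, 6 and 21 (3924 of all genes), lower in each case; there the median of all genes was -0.41 and those of both sets -0.53 and -0.51. With the replicate block alone they were 0, 0 and 1 (767 of all genes), with the block and voom 1, 0 and 5 (1619), with the block at 10 FPKM 0, 0 and 2 (954), with the block and the total without mitochondrially encoded genes 0, 0 and 3 (943), and with the block and no filter, or each gene's own spread (chosen after seeing the data), 0 each (0 of all genes). All genes gave 0 calls with no filter (1612 at an unadjusted p under 0.05) or voom (1208), 2 with pseudocount 10 and 8 with quantile normalisation. Leaving out 1 library gave 0 to 321 calls among all genes (321 without CD20-positive replicate 1) and 0 in both sets and the lists. Leaving out a pair under the block gave 2162 calls among all genes without replicate 1, 1 without replicate 2 and 337 without replicate 3. It gave 0 cytosolic calls, 0 to 1 mitochondrial (WARS2, at -0.51, without replicate 1) and 0 to 8 in the lists.

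The set medians were 0.064 and 0.058 under the total without mitochondrially encoded genes, with or without the block (all genes 0.09). Leaving out 1 library moved the cytosolic median between -0.13 and 0.064 and the mitochondrial one between -0.11 and 0.029. The ratio of sums was 0.244 higher in CD20-positive libraries, 0.154 to 0.31 when a library was left out, 0.0955 over members at 10 FPKM and 0.0368 without AARS1 (chosen after seeing the data); the median log2 FPKM of the cytosolic genes minus that of the mitochondrial genes was 0.15 higher in CD20-positive libraries. With pseudocount 0.1 the median change of the 11 ratios was 0.060, against 0.080. Under scaling to the FPKM total, with or without the block, AARS1 (-0.13), AARS2 (-0.15), MARS1 (-0.26) and SLC7A5 (-0.042) turned. The change of IARS2 ran from -0.239 to 0.0288 when 1 library was left out and was 0.0457 without replicate 1 under the block. What moved these values was not tested. Of 14 pseudogenes named after members 10 were listed at 0 and none exceeded 0.336 FPKM.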
